A study of Homo sapiens with 12 samples.

Results

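The domain described here is a stretch of 5 Mb at 2q37, chr2:235000001-240000000 in hg19, in which active chromatin was called more often in SW480 than in SW620 cells. Its members are all regions of the 10 deposited lists that overlap it, 679 of 262931 regions in all. Chromatin immunoprecipitation with sequencing was done on 2 human colorectal adenocarcinoma lines, SW620, labelled Dukes' type C, and SW480, labelled Dukes' type B, both cultured in DMEM and given no treatment. Each line had 1 library for each of H3K4me2, H3K4me3, H3K27ac, H3K36me3 and FOXA2, and an input library that served in the authors' peak calling. Each group is thus 1 library of 1 cultured line, with no replicate and no test between the lines. All values below describe these libraries. Intervals beside shares are Wilson intervals at 95% and take in counting error alone, and neighbouring regions are not independent.

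The domain was selected on its counts of line-only regions of H3K4me2, H3K27ac and H3K36me3, that is, regions with no overlap of 1 bp or more with the same mark in the other line. Those counts are given as a description and support nothing. H3K4me3, FOXA2, and where regions lie within the domain did not enter the choice, although all antibodies were used on the same pair of lines.

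H3K4me3 marks promoters, H3K4me2 marks both promoters and enhancers, and H3K27ac marks those that are active. H3K36me3 is laid down along the bodies of transcribed genes as RNA polymerase II passes. FOXA2 is a forkhead transcription factor of endoderm and liver that can bind DNA in closed chromatin. The positions were related to 4 genes. AGAP1 encodes a GTPase-activating protein for Arf GTPases that acts in endosomal traffic. ACKR3, also known as CXCR7, encodes an atypical receptor for the chemokine CXCL12. COL6A3 encodes the alpha 3 chain of collagen VI, a matrix protein made mainly by stromal cells. HDAC4 encodes a class IIa histone deacetylase that represses transcription with MEF2 factors. Between AGAP1 and HDAC4, the RefSeq gene order places 21 further protein-coding genes besides ACKR3 and COL6A3, among them the homeobox gene GBX2, the clock gene PER2, the Notch-related factor gene HES6 and the factor gene TWIST2. Regions were not assigned to those genes, because the gene table and the lists are on different builds.

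Promoter sequences are shown for the 2 of the 4 genes that have an entry in the RefSeq promoter table for GRCh38.p14, because their starts differed in marking: no region of any list lay within 5 kb of the COL6A3 start, whereas the HDAC4 start was covered by H3K4me2, H3K4me3 and H3K27ac in both lines. Each runs 5′ to 3′ on the minus strand across the annotated start, 300 bases in all, with every CG pair in capitals. The COL6A3 window is chr2:237414115-237414414 and the HDAC4 window, the outermost of 5 entries, is chr2:239401600-239401899, both in GRCh38.
COL6A3: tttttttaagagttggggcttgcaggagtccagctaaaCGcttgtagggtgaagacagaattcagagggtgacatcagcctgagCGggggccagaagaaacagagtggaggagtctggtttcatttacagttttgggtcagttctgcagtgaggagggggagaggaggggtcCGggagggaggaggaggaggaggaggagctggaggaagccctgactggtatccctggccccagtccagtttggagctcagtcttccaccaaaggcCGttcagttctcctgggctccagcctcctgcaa
HDAC4: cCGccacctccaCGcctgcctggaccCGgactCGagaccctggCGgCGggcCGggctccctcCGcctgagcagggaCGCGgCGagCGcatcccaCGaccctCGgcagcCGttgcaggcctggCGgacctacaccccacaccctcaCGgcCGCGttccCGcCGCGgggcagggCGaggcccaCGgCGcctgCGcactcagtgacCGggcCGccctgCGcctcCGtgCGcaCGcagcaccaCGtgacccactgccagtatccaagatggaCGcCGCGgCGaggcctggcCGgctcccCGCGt
The COL6A3 window held 4 CG pairs and was 56.3% G or C. The HDAC4 window held 40 CG pairs and was 76.3% G or C. CG, which reads the same on both strands, occurred in 96.0% of the 35116 promoters of the table, with a median of 14 per promoter and a median G or C share of 58.7%. Of these promoters, 24.5% held fewer CG pairs than COL6A3 and 92.4% held fewer than HDAC4. The match of few CG pairs with an unmarked start is a description of 2 promoters.

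The libraries held between 12791745 and 47867295 tags. Among the histone marks the H3K27ac libraries differed most in enrichment, with 27.51% of 47867295 tags inside regions in SW620 and 58.51% of 34224728 tags in SW480. H3K4me3 came next, with 52.0% of 12791745 tags in SW620 and 73.03% of 16400013 tags in SW480. For H3K4me2 the shares were 50.73% in SW620 and 45.81% in SW480. In H3K36me3 the shares were 35.2% in SW620 and 32.79% in SW480, and in FOXA2 they were 2.25% in SW620 and 0.59% in SW480. The part of these differences in the results was not tested. The copy number of the domain in either line was not analysed here.

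H3K27ac was called in 47 regions covering 121 kb in SW620 and in 97 regions covering 260 kb in SW480. Of these, 11 regions in SW620 (23.4%, interval 13.6% to 37.2%) and 60 in SW480 (61.9%, 51.9% to 70.9%) had no counterpart in the other line. Over the whole lists the line-only share was 26.8% in SW620 and 32.0% in SW480. The SW620 share was thus near its background. The SW480 share lay above its own, as the choice of the domain required. The SW620 count was 0.485 times the SW480 count in the domain, 0.971 times on the rest of chromosome 2 and 0.946 times over the whole lists.

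H3K36me3 was called in 75 regions in SW620 and 149 in SW480, which covered 191 kb and 356 kb of the domain in SW620 and SW480. Line-only regions numbered 24 in SW620 (32.0%, 22.5% to 43.2%) and 94 in SW480 (63.1%, 55.1% to 70.4%), against 27.9% and 34.3% of the whole SW620 and SW480 lists. H3K4me2 was called in 92 regions in SW620 and 114 in SW480. Of these, 27 in SW620 (29.3%, 21.0% to 39.3%) and 51 in SW480 (44.7%, 35.9% to 53.9%) were line-only, against 30.2% and 23.2% of the whole SW620 and SW480 lists. With lists of equal length, 29 SW620-only and 60 SW480-only H3K36me3 regions were left. In all 3 marks that chose the domain the line-only share of SW620 regions stayed near its whole-list value.

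H3K4me3, which did not choose the domain, was close to balanced. It was called in 28 regions covering 62.8 kb in SW620 and in 34 regions covering 77.3 kb in SW480. The SW620 to SW480 ratio of counts was 0.824, against 0.892 over the whole lists. Line-only H3K4me3 regions numbered 2 in SW620 (7.14%, 1.98% to 22.6%) and 9 in SW480 (26.5%, 14.6% to 43.1%), against 6.85% and 17.1% of the whole SW620 and SW480 lists. The interval of each share contains its whole-list value, so a difference from it was not detectable with so few regions. With the lists cut to equal length, 6 line-only H3K4me3 regions were left in each line.

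FOXA2 ran the other way. SW620 had 37 peaks and SW480 had 6, and none of them overlapped a peak of the other line. That last count says little, since 98.1% of all SW620 peaks and 95.5% of all SW480 peaks were line-only. The SW620 list made up 86.0% of the FOXA2 peaks of the domain (72.7% to 93.4%), against 70.4% over the whole lists and 65.6% on the rest of chromosome 2. Its share was 79.3% in the stretch above the domain (61.6% to 90.2%) and 52.4% in the 5 Mb below (32.4% to 71.7%). The high share was thus not particular to the domain. The 2 lists differ in enrichment and in peak width, 319 bp in SW620 and 127 bp in SW480. With the SW620 list cut to the length of the SW480 list, 17 SW620 peaks and 6 SW480 peaks were left in the domain. Of the measures that the choice of the domain did not use, FOXA2 peaks thus went against the name SW480-biased, and H3K4me3 gave no detectable lean.

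**Figure D1:**
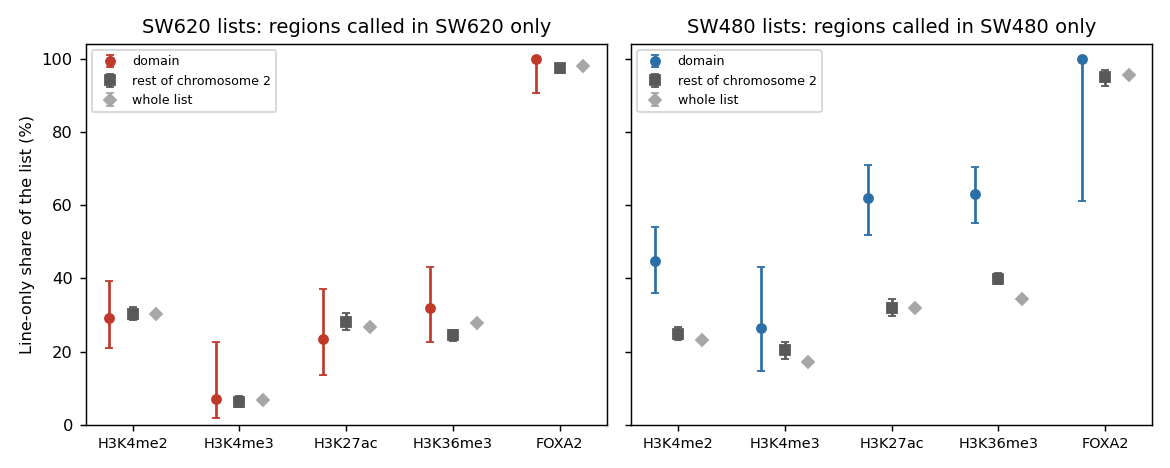
Share of regions called in one line only (%), for the SW620 lists (left) and the SW480 lists (right), in the domain, on the rest of chromosome 2 and over the whole list, with 95% Wilson intervals as bars. In SW480 the domain shares of H3K27ac (61.9%) and H3K36me3 (63.1%) stand above those of the whole lists (32.0% and 34.3%), while in SW620 each domain interval contains the whole-list share.

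The bias was not even along the domain. In 10 steps of 500 kb, numbered from the lower edge, H3K27ac covered more in SW480 in all 10, H3K36me3 in 7, and H3K4me2 and H3K4me3 in 6 each. Over the whole lists the SW620 to SW480 ratio of covered length was 0.87 for H3K27ac and 0.934 for H3K36me3. It was 1.08 for H3K4me2 and 0.895 for H3K4me3. The gap in H3K27ac was widest in step 1, where 2.13 kb was acetylated in SW620 and 58.0 kb in SW480, in 1 and 16 regions. It was wide again in step 3, with 2.75 kb in SW620 and 29.7 kb in SW480. Step 2 was near balance, with 41.0 kb acetylated in SW620 and 45.6 kb in SW480. Steps 9 and 10 were near balance too, with 24.2 and 7.91 kb in SW620 and 27.9 and 8.87 kb in SW480. The H3K27ac ratios of steps 2, 9 and 10 were 0.9, 0.867 and 0.891, near the whole-list ratio of 0.87.

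H3K36me3 had a different profile. In step 4, which lies within AGAP1, it covered 12.4 kb in SW620 and 132 kb in SW480. In step 2 it covered 29.3 kb in SW620 and 65.5 kb in SW480. In step 9 the order was turned, with 65.9 kb in SW620 and 56.0 kb in SW480 and with 11 SW620-only and 6 SW480-only regions. In both lines H3K36me3 was uncalled over nearly 1 Mb from the end of the AGAP1 body toward COL6A3. The gap was 963 kb in SW620, at 237034176-237997257, and 968 kb in SW480, at 237035064-238002648. Both gaps began just inside AGAP1 and ended before COL6A3.

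**Figure D2:**
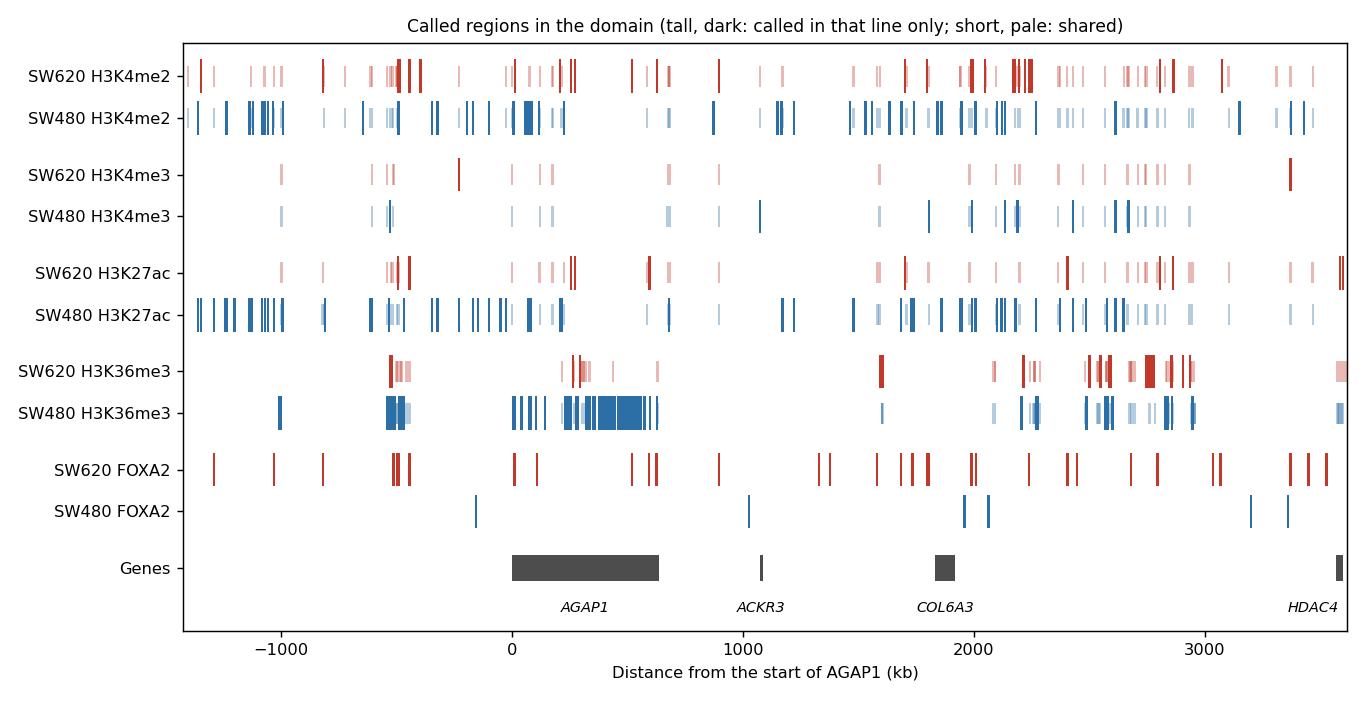
Positions of the 679 regions along the domain, as distance from the start of AGAP1 in kb, with a row for each antibody and line and the 4 genes below. Tall dark bars are regions called in that line only, short pale bars are shared, and every bar is drawn at least 10 kb wide for visibility. SW480-only H3K36me3 regions stand close together over AGAP1, of which they and the shared regions cover 22.5% at true width, and SW480-only H3K27ac regions crowd the stretch before AGAP1.

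**Figure D3:**
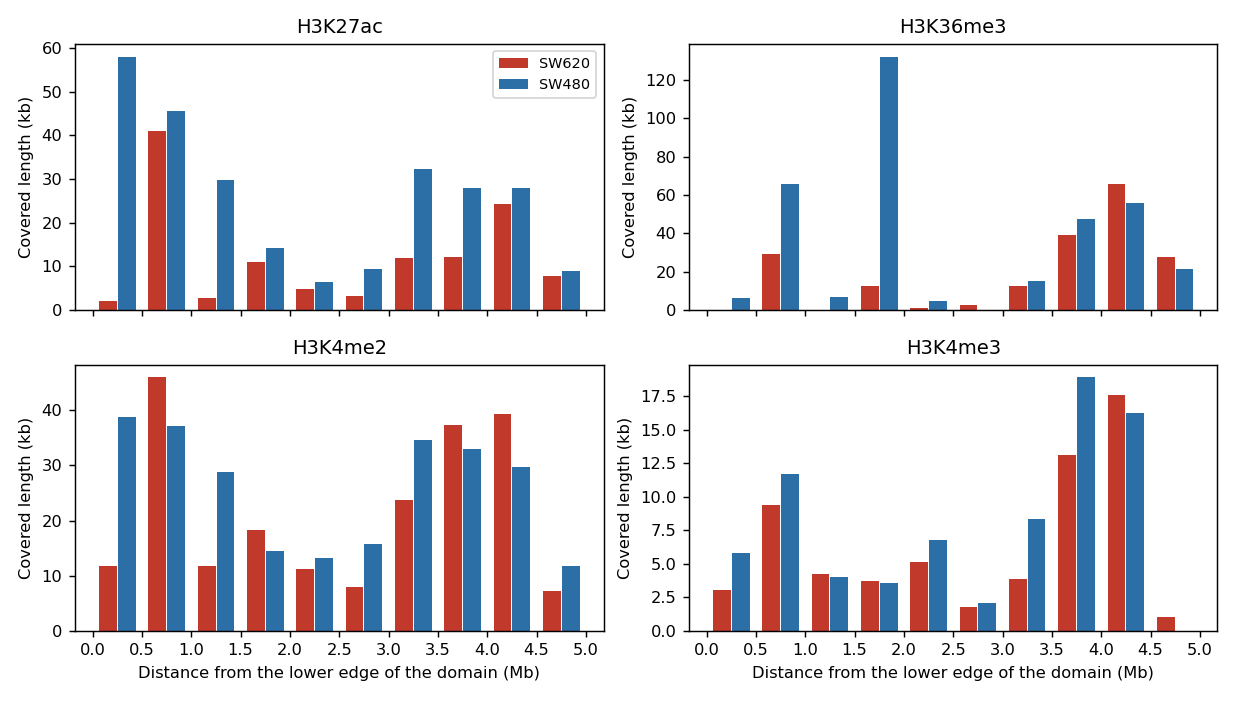
Length covered by called regions (kb) in each 500 kb step of the domain, for each of the 4 histone marks, with SW620 in red and SW480 in blue. H3K27ac is higher in SW480 in every step, though in steps 2, 9 and 10 by about as much as over the whole lists. H3K36me3 peaks in SW480 in step 4 (132 kb, against 12.4 kb in SW620).

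At AGAP1 the start was marked in both lines, and the lines differed in the gene body. The start was covered in both lines by H3K4me3 (chr2:236401628-236404850 in SW620, chr2:236401257-236405267 in SW480), by H3K27ac (2747 bp in SW620, 4797 bp in SW480) and by H3K4me2 (4143 bp in SW620, 4689 bp in SW480). Over the 638 kb of the gene, H3K36me3 was called in 11 regions in SW620 and 70 in SW480. It covered 2.11% of the gene in SW620 and 22.5% in SW480. The widest H3K36me3 regions were chr2:236707780-236710268 in SW620, 2489 bp, and chr2:236654455-236664567 in SW480, 10113 bp, which was SW480-only. A further wide SW480-only region, chr2:236948297-236953911, lay 79263 bp from the nearest SW620 region.

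Along the gene, in 5 equal parts from the start, H3K36me3 covered 0%, 1.53%, 7.45%, 0.785% and 0.785% in SW620. In SW480 it covered 8.63%, 16.5%, 35.8%, 29.8% and 21.9%. Coverage was highest in the middle part in both lines, and SW480 was higher in all 5. In the first 2 parts H3K27ac covered 2.20% and 3.33% in SW620 and 10.8% and 8.43% in SW480. The middle part held 2 SW620-only H3K27ac regions that covered 1.62%, and none in SW480. The part after it held none in either line, and in the last part H3K27ac covered 2.57% in SW620 and 1.39% in SW480. The widest H3K27ac region of the gene in SW480, chr2:236475917-236482221, was SW480-only and 6305 bp wide.

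**Figure D4:**
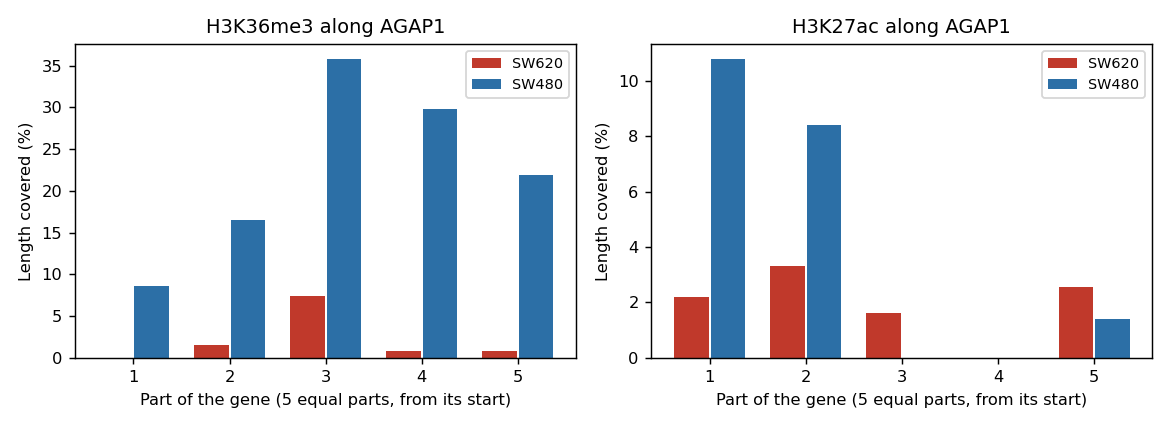
Share of each of 5 equal parts of AGAP1, from its start, covered by H3K36me3 (left) and H3K27ac (right) regions (%), with SW620 in red and SW480 in blue. H3K36me3 is higher in SW480 in all 5 parts, up to 35.8% against 7.45% in SW620, while H3K27ac is higher in SW480 in the first 2 parts and in SW620 in the middle part (1.62%, against 0%) and the last.

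AGAP1 accounted for much of the H3K36me3 difference and little of the H3K27ac difference. It makes up 12.8% of the domain's length and held 63 of the 94 SW480-only H3K36me3 regions (67.0%), but 5 of the 60 SW480-only H3K27ac regions (8.33%). Outside AGAP1, line-only H3K36me3 regions numbered 22 of 64 in SW620 (34.4%) and 31 of 79 in SW480 (39.2%), both close to the whole-list shares. These shares pool unlike stretches. Before AGAP1, line-only H3K36me3 regions numbered 2 of 9 in SW620 and 18 of 26 in SW480. From ACKR3 to COL6A3 they numbered 4 in SW620 and 0 in SW480. From COL6A3 to HDAC4 they numbered 16 in SW620 and 13 in SW480. Outside AGAP1, line-only H3K27ac regions numbered 8 of 39 in SW620 (20.5%) and 55 of 87 in SW480 (63.2%). The H3K36me3 bias is thus mostly that of 1 gene body, and the H3K27ac bias is not.

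The other genes carried few regions. At ACKR3 the start was covered by H3K4me3 in SW480 (chr2:237476373-237477945) and in no SW620 list, and the nearest SW620 H3K4me3 region was 177435 bp away. H3K4me2 was called there in both lines, in chr2:237476794-237478050 in SW620 and chr2:237475466-237478296 in SW480. No H3K27ac or H3K36me3 region lay on ACKR3 in either line. COL6A3 had no region in SW620 and 3 in SW480, of which 2 were H3K4me2 and 1 was H3K27ac (chr2:238261610-238262610, inside the gene body), which was not among the widest regions kept when the lists were cut to equal length. Neither line had an H3K36me3 region on COL6A3.

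HDAC4 went against the name of the domain. Of its 353 kb, 30.1 kb lie inside, where H3K36me3 covered 92.7% in SW620 and 71.7% in SW480 and where H3K27ac was called in 2 regions in SW620 and 0 in SW480. Over the whole gene, most of it outside the domain, H3K27ac covered 39.2% in SW620 and 13.9% in SW480, H3K4me3 covered 16.0% in SW620 and 3.34% in SW480, and H3K36me3 covered 64.6% in SW620 and 39.9% in SW480. A single SW620 H3K27ac region in the gene, chr2:240142142-240203634, spanned 61493 bp. The upper edge of the domain thus falls within HDAC4, where coverage was higher in SW620. The values of this gene alone do not show a turn of the bias in the region around it.

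**Figure D5:**
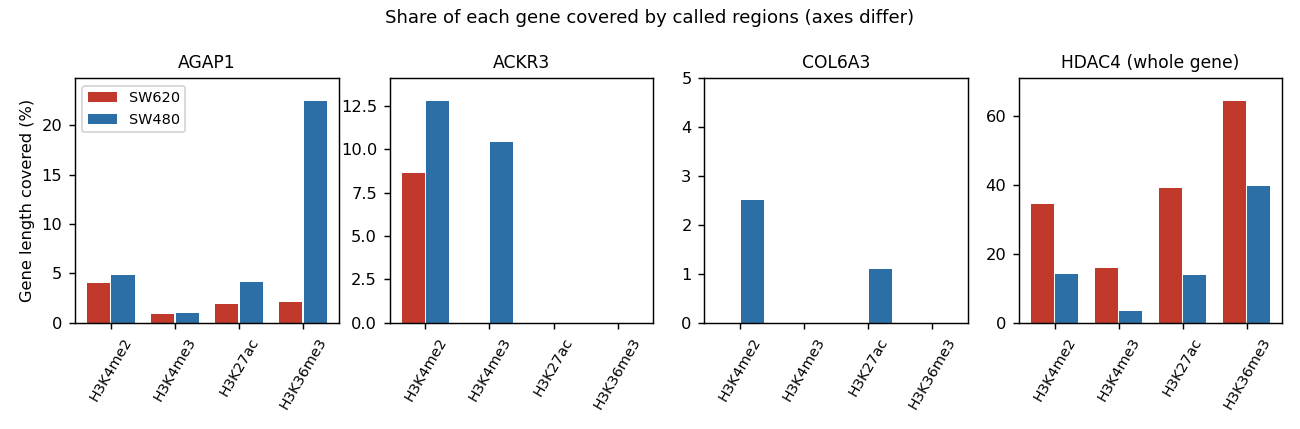
Share of each gene's length covered by called regions of the 4 histone marks (%), with SW620 in red and SW480 in blue and with axes that differ between genes. AGAP1 H3K36me3 is at 2.11% in SW620 and 22.5% in SW480, whereas every mark on HDAC4 covers more in SW620.

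At the edges, the first H3K27ac regions inside were chr2:235404763-235406897 in SW620, a shared region, and chr2:235043555-235045631 in SW480, an SW480-only one. The nearest below were chr2:234889672-234892912 in SW620 and chr2:234933158-234935464 in SW480, both line-only. The last H3K27ac regions inside were chr2:239999008-240000008 in SW620, line-only and crossing the edge, and chr2:239868154-239872258 in SW480. The nearest above were chr2:240034017-240035649 in SW620 and chr2:240018949-240021497 in SW480, both line-only. In the 5 Mb below the domain, line-only H3K27ac regions numbered 17 of 67 in SW620 (25.4%) and 36 of 83 in SW480 (43.4%). Line-only H3K36me3 regions there numbered 48 of 176 in SW620 (27.3%) and 58 of 189 in SW480 (30.7%). In the 3152.6 kb above, line-only H3K27ac regions numbered 19 of 56 in SW620 (33.9%) and 21 of 61 in SW480 (34.4%). Line-only H3K36me3 regions above numbered 52 of 144 in SW620 (36.1%) and 50 of 166 in SW480 (30.1%). Over the whole SW620 and SW480 lists the shares were 26.8% and 32.0% for H3K27ac and 27.9% and 34.3% for H3K36me3. Below the domain the H3K36me3 shares were near these values. The H3K27ac lean toward SW480 continued below the domain in a smaller measure, and above it the counts of the lines were close. HDAC4, most of which lies above the edge, was taken over its whole length. There 17 of 21 H3K27ac regions in SW620 and 1 of 11 in SW480 were line-only. For H3K36me3, 27 of 39 regions in SW620 and 1 of 36 in SW480 were line-only. The rest of the stretch above thus held more SW480-only than SW620-only regions of both marks. So did the whole lists, with 7519 SW480-only and 5966 SW620-only regions of H3K27ac and 18038 and 12706 of H3K36me3. No local bias is read from that excess.

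The acetylation called in SW480 only lay mostly away from promoters, as marked by H3K4me3. Of the 60 SW480-only H3K27ac regions, 7 overlapped H3K4me3 in SW480 (11.7%, against 39.4% over the whole list). Regions of H3K27ac without H3K4me3 of the same line numbered 23 of 47 in SW620 and 65 of 97 in SW480. Of these, 11 in SW620 (47.8%, 29.2% to 67.0%) and 53 in SW480 (81.5%, 70.4% to 89.1%) were line-only, against 59.8% and 58.9% over the whole SW620 and SW480 lists. H3K27ac with H3K4me3 was called in 24 regions in SW620, none line-only, and in 32 in SW480, 7 line-only (21.9%, 11.0% to 38.8%), against 4.75% and 18.8% over the whole SW620 and SW480 lists. These line-only shares rest on the regions that chose the domain, and are given as a description. At promoters marked in both lines, acetylation was shared: of 26 overlapping pairs of H3K4me3 regions, 24 were acetylated in both lines and 2 in SW480 alone. Over the whole lists 82.3% of such pairs were acetylated in both and 12.1% in SW480 alone. Among the 24 pairs that matched one to one, 10 were wider in SW620, 11 were wider in SW480 (45.8%, against 55.6% over the whole lists) and 3 were equal.

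Many of the SW480-only acetylated sites carried no called mark in SW620. Of the 60, 37 (61.7%) overlapped none of the 4 histone marks in SW620, against 42.8% of all SW480-only H3K27ac regions. H3K4me2 was called in SW620 at 22 of them (36.7%, against 52.0% over the whole list) and in SW480 at 44 (73.3%, against 82.7%). These shares are read from the regions that the choice of the domain used, and are given as a description. For the 11 SW620-only regions the median gap to SW480 acetylation was 20.3 kb, as over the whole SW620 list, and 0 lay beyond 50 kb, against 29.7%. For the 60 SW480-only regions the median gap to SW620 acetylation was 42.2 kb, against 28.5 kb over the whole SW480 list, and 27 (45.0%) lay beyond 50 kb, against 37.0%. The domain was chosen for many SW480-only regions, so these gaps are a description.

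Line-only H3K27ac regions were joined into runs across gaps of up to 12500 bp. SW620 had 1 run of 2 or more, which held 2 of its 11 line-only regions (18.2%, against 36.6% over the whole list). SW480 had 14, which held 33 of its 60 (55.0%, against 29.8%). These counts rest on the regions that chose the domain, and the runs are given to show where they lay. The SW620 run, chr2:239987620-240000008, lay in HDAC4. The longest SW480 run was chr2:235316671-235347940, 31.3 kb with 3 regions and 20861 acetylated bp, which overlapped 1 H3K4me2 region in SW620 and 5 in SW480. The next were chr2:238394840-238411147, 16.3 kb with 2 regions and an SW480-only H3K4me3 region at one end, and chr2:235262402-235278611, 16.2 kb with 3 regions. The 3 widest SW480-only H3K27ac regions of the domain all lay in the 2 runs before AGAP1: chr2:235329186-235337548 (8363 bp), chr2:235316671-235324639 (7969 bp) and chr2:235267537-235274135 (6599 bp). They lay over 1 Mb before AGAP1, with no H3K4me3 in either line. By comparison, the widest SW620-only H3K27ac region, chr2:235957744-235960962, was 3219 bp wide and held an SW620 FOXA2 peak.

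The few line-only H3K4me3 regions lay on chromatin with H3K4me2, as such regions mostly did elsewhere. All 9 SW480-only ones overlapped H3K4me2 in SW480, 7 overlapped it in SW620 as well, and 6 overlapped H3K27ac in SW480 while 1 did so in SW620. Over all SW480-only H3K4me3 regions the shares were 96.6% on H3K4me2 in SW480, 73.3% on H3K4me2 in SW620, 51.9% on H3K27ac in SW480 and 15.4% on H3K27ac in SW620, and the domain's counts were near these. The widest were chr2:238206445-238208529 (2085 bp), chr2:235874558-235876630 (2073 bp) and chr2:238394883-238396797 (1915 bp). The SW620-only ones were chr2:236172268-236173268 and chr2:239772504-239773504, both at the smallest width in the lists, and both overlapped H3K4me2 and H3K27ac in SW480.

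Most SW620 FOXA2 peaks of the domain sat on H3K4me2, H3K4me3 or H3K27ac of their own line, 23 of 37 (62.2%, against 55.1% over the whole list). Of the 37, 22 overlapped H3K4me2 in SW620 (59.5%, 43.5% to 73.7%), against 51.7% of all SW620 peaks, and 11 overlapped it in SW480. H3K27ac was called in SW620 at 12 (32.4%, against 33.9%) and in SW480 at 11. At 7 of the 37 both lines had H3K27ac, at 5 SW620 alone and at 4 SW480 alone. The domain's FOXA2 peaks were thus as often on acetylated chromatin as those elsewhere, within counting error. All 6 SW480 peaks lay on none of the 4 marks in either line, and the interval of a share with a count of 0 among 6 runs up to 39.0%. Over the whole list 6.78% of SW480 peaks were on H3K4me2, H3K4me3 or H3K27ac, so a count of 0 among 6 was not distinguishable from that share.

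The SW620 peaks were most numerous in step 2, before AGAP1, and in step 7, with 7 of the 37 in each. In step 2 a chain of 6 peaks between chr2:235889024-235889342 and chr2:235959195-235959513 lay on SW620 acetylation: the first 3 had H3K27ac in both lines, and the last 3, chr2:235909451-235909769, chr2:235914270-235914588 and chr2:235959195-235959513, had it in SW620 alone. The same stretch held the widest SW620-only H3K4me2 region, chr2:235914692-235919694 (5003 bp), and 2 of the 11 SW620-only H3K27ac regions. Few sites acetylated in SW480 alone held SW620 FOXA2: an SW620 peak lay in 3 of the 60 SW480-only H3K27ac regions (5.0%, 1.71% to 13.7%, against 7.04% over the whole list) and in 3 of the 11 SW620-only ones (27.3%, 9.75% to 56.6%, against 26.7%). These shares match their whole-list values within counting error. AGAP1 held 6 SW620 peaks and no SW480 peak, and none of those 6 lay on H3K27ac in either line.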

How the data were processed

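The 10 antibody lists of SW620 and SW480 were used, 1 library per group, grouped by sample title. Per the file headers, the authors ran HOMER findPeaks on every library with its line's input as control, using regions of 1000 bp for histone marks, at least 4-fold over input and over local background, 2-fold for FOXA2, and a false discovery rate of 0.001. Coordinates are hg19, which the submitters' processing notes name. Neither an aligner nor a version of HOMER is given in the sources used. The deposited score is 1 in every row, so no strength per region was available and the other deposited values used were positions, counted from 1, and row order. Row order was used to cut the FOXA2 lists to equal length, keeping the first rows. Histone lists were cut by width, keeping the widest regions. Whether row order follows peak strength was not tested. Depth, as total tags per library, was between 12791745 and 47867295.

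A region counted as shared with an overlap of at least 1 bp with the other line's list, and as line-only otherwise. A region just under the threshold in one list therefore counts as line-only in the other. Overlaps used numpy 2.4.6 and pandas 2.3.3 and equalled those of bedtools 2.31.1 for all 10 lists. Intervals came from scipy 1.17.1 and figures from matplotlib 3.10.9. Functions were tested on simulated regions. Background shares are over whole lists. Covered lengths merge regions that overlap within a list. Gene spans are hg19, as given with the definition of the domain. Named were, by rule, the 3 widest line-only regions per mark and line, line-only H3K4me3 regions, FOXA2 peaks, the 3 longest runs, regions at the 4 genes and regions at the edges. The domain, the genes and these lists were chosen with earlier results of these data known. Alternatives covered overlap, list length, width, position and the inclusion of AGAP1.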

Additional observations from a re-analysis of the deposited data

How the results depend on the processing

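Line-only counts of H3K4me2, H3K27ac and H3K36me3 stayed lower in SW620 than in SW480 in each of the 9 alternatives run. These counts chose the domain, so their order is a description. Over the whole lists they were also lower in SW620 for H3K27ac (5966, against 7519 in SW480) and H3K36me3 (12706, against 18038). For H3K4me2 they were higher (10613 in SW620, against 7363). FOXA2 counts stayed higher in SW620 in each of its 8, as over the whole lists (12136, against 4971). With lists of equal length the FOXA2 log2 ratio was 1.36, against 2.44. For H3K4me3 the SW620 count stayed lower in 7 of 9. With lists cut to equal length both lines had 6 line-only H3K4me3 regions, a log2 ratio of 0, and with the domain moved 1 Mb higher they had 13 in SW620 and 10 in SW480, a log2 ratio of 0.35. That move, which takes in HDAC4, also gave 24 SW620-only and 42 SW480-only H3K27ac regions, and 54 SW620-only and 78 SW480-only H3K36me3 regions. Where sharing required 50% of each region to be overlapped, SW620-only regions numbered 43 for H3K4me2, 5 for H3K4me3, 24 for H3K27ac and 55 for H3K36me3. In the same order of marks, SW480-only regions numbered 65, 11, 74 and 129. With regions of at least 2 kb alone, fewer regions entered, and line-only ones numbered 11 in SW620 and 20 in SW480 for H3K4me2, 0 and 5 for H3K4me3, 4 and 31 for H3K27ac, and 6 and 36 for H3K36me3, while H3K4me2 covered 169 kb in SW480. Lists of equal length left 29 SW620-only and 60 SW480-only H3K36me3 regions, and 17 SW620 FOXA2 peaks covering 5.42 kb. Without AGAP1, an alternative chosen after seeing the data, 22 SW620-only and 31 SW480-only H3K36me3 regions were left. Of 64 alternatives for the share of a gene covered, 61 were within 1.5 times the value given. The 3 others were H3K4me2 in SW620 (5.12%) and H3K4me3 in SW480 (6.40%) on ACKR3 with 5 kb added on either side, and H3K27ac on COL6A3 in SW480, which was 0% in lists of equal length. The cause of these moves was not tested. No paired analysis was possible because each line has 1 library per antibody. Depth and the calling threshold limit every line-only call, since a site just under the threshold in one library counts as absent there, and the deposited lists hold no signal that could place it.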
